A study of Mus musculus with 20 samples.

Results

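Cytosolic ribosomal proteins are the protein components of the ribosomes that translate messenger RNA in the cytoplasm. Their transcripts were followed in a slow and a fast hind-limb muscle of the mouse, with and without 24 h of unloading. The group was chosen by name: genes whose array probes were called Rpl or Rps with a number and at most a closing a or l, the stalk genes Rplp0, Rplp1 and Rplp2, and Rpsa. This gave 77 genes of the 25293 tested, 46 of the large ribosomal subunit and 31 of the small one. Each gene was read from the probe with the highest mean signal over the 20 arrays.

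The animals were 10 male ICR mice, 6 months old, with no genetic change named. Freely ambulating controls numbered 5. The other 5 hung by the tail for 24 h with the head down at 45°, so that the hind limbs bore no weight, which is called hind-limb suspension (HLS) here. Soleus and gastrocnemius were taken from each animal, and each muscle went on an array of its own. This gave 5 arrays in each of 4 groups: gastrocnemius control, gastrocnemius HLS, soleus control and soleus HLS. The question put to the data was whether transcripts of these proteins changed with unloading in either muscle, and whether they differed between the muscles.

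A ribosome is built from ribosomal RNA and one copy of nearly every ribosomal protein, so cells make these proteins in matched amounts. In the nucleolus, RNA polymerase I transcribes the ribosomal RNA, and assembly factors fold and trim it around the proteins. The messenger RNAs of the proteins start with a C followed by a run of pyrimidines, the TOP motif, through which the kinase mTORC1 controls their translation. Loading of a muscle raises mTORC1 activity and unloading lowers protein synthesis, but translation of existing messenger RNA was not measured on these arrays. Skeletal muscle also has a ribosomal protein of its own, Rpl3l, which takes the place of Rpl3 in part of its ribosomes.

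The start-site sequences show the pyrimidine start in some of the transcripts that differed between the muscles below. Of the 77 genes, 57 had an entry among the RefSeq promoters of GRCm38.p6, with 68 annotated starts. The windows below hold 15 bases before the annotated start and 15 from it on, 5′ to 3′ on the strand of the gene. Capitals mark a C followed by at least 4 letters that are each C or T, where this run overlaps the 10 bases on either side of the start. In Rps12 the run goes on past the window.
Rps12, chr10:23787195-23787224, minus strand: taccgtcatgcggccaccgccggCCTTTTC
Rpl38, chr11:114668565-114668594, plus strand: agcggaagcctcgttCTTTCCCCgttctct
Rps18, chr17:33955651-33955680, minus strand: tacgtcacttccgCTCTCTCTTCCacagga
Rps6, chr4:86857353-86857382, minus strand: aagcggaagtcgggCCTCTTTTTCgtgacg
Rps13, chr7:116334176-116334205, minus strand: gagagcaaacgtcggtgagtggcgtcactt
Rpl11, chr4:136053379-136053408, minus strand: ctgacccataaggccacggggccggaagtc
Rpl3l, chr17:24727811-24727840, plus strand: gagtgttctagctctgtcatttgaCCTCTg

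In Rpl38 the run began at the annotated start itself, and in Rps18 and Rps6 it spanned it. In Rpl3l, shown at the first of its 2 listed starts, the run began at the tenth base. No run was found in the windows of Rps13 and Rpl11, which says only that these letters are not near the annotated start. Such a run lay at 58.8% of the 68 starts, against 34.9% of all 32851 promoters in the table. The letters CGGAAG, searched on both strands in the 300 bases from 250 before to 50 after the start, were in 61.8% of the windows against 16.9% of all promoters. CTTCCG, the reverse complement of CGGAAG, can overlap the pyrimidine run. TATAAA, searched the same way, was in 8.8% against 13.6%. The run was about as frequent in genes higher in soleus (16 of 24 with an entry) as in genes with no call between the muscles (22 of 32).

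Levels are given as log2 of the array signal relative to the 75th percentile of that array, which is set to 0, so a difference of 1 is a doubling. By array, 80.8% to 93.1% of the spots were well above background. The number of arrays, 5 in each group, limits the precision. The slow-fibre markers went with the labels with 1 exception. The slow troponin Tnni1 was at 6.72 to 7.35 on the other 9 soleus arrays, but at 4.15 on soleus HLS array 1. The same array read 9.47 for the fast myosin Myh4 and 7.03 for the fast-fibre calcium buffer Pvalb, values in the range of gastrocnemius or above. Its slow myosin Myh7, at 8.58, lay between the gastrocnemius arrays (at most 8.11) and the other soleus arrays (at least 8.88). Myh4 was also high on soleus control 1 (8.37), soleus control 4 (7.90) and soleus HLS 4 (8.51), where Tnni1 was not low. The main counts and medians of the members in comparisons with soleus HLS are therefore also given without array 1. Interval counts, the other gene lists and most single genes are given with it alone. In a whole muscle, fewer cells of a type and less RNA per cell cannot be told apart.

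No ribosomal protein transcript passed the test after 24 h of suspension in soleus, where 5.95% of all 25293 genes did (limma, Benjamini-Hochberg adjusted p under 0.05, 5 arrays in each group). The median difference, HLS minus control, was -0.03 over the 77 genes and 0.05 over all genes. The values ran from -0.46 for Rpl27a to 0.29 for Rps19, with 26 above and 51 below 0. Dimmer probes of Rpl27a and Rps19, with mean levels of -2.64 and 1.19, showed 0.16 and -0.10. An unadjusted p under 0.05 was reached by 1 of the 77, Rpl27a, at -0.46 with a 95% interval from -0.87 to -0.04 (adjusted p = 0.22). Without soleus HLS array 1 there was again no call, and the median was -0.04. With quantile normalization, which gives every array the same distribution of signals, no member passed in soleus either (5.84% of all genes). All soleus control arrays were scanned on day 2, and soleus HLS arrays 4 and 5 on day 3. Within day 2, 3 HLS arrays against 5 controls gave a median of -0.00, with 38 values above 0 and 39 below. Slide 5 alone held both conditions of soleus, and 3 HLS arrays against 1 control there gave a median of -0.04.

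In gastrocnemius no member passed the test either, against 3.17% of all genes. The median was -0.02, and 34 values lay above 0 and 43 below. They ran from -0.23 for Rps3, a protein at the messenger RNA entry of the small subunit, to 0.31 for Rps19, a small subunit protein whose loss causes Diamond-Blackfan anaemia. An unadjusted p under 0.05 was met by Rps24 (0.26, adjusted p = 0.24) and Rps3 (adjusted p = 0.30). With quantile normalization 1 member rose, Rps24, by 0.30 (limma adjusted p = 0.025, against 1.82% of all genes higher). On the 75th percentile scale, Rps24 read 5.25, 5.59, 5.48, 5.48 and 5.32 on the control arrays of gastrocnemius and 5.83, 5.46, 5.66, 5.66 and 5.79 on the HLS arrays. The 2 groups of Rps24 values overlapped, through HLS array 2. Dimmer probes of Rps24, with mean levels of -1.38 and -2.53, showed -0.34 and -0.15 on that scale. A dimmer probe of Rps19, with a mean level of 1.19, showed 0.09. All gastrocnemius control arrays were scanned on day 1, and the HLS arrays on day 2 except HLS array 1. Condition and scan day can therefore not be told apart in gastrocnemius except through that 1 array. Within day 1, HLS array 1 against the 5 controls gave a median of 0.05 over the members, with 52 values above 0 and 25 below.

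The response to suspension was not found to differ between the muscles for any member, against 0.00791% of all genes (limma interaction). The median difference of the 2 responses, soleus minus gastrocnemius, was -0.02. An unadjusted p under 0.05 was met by Rps24 alone (limma adjusted p = 0.85). Without soleus HLS array 1 there was no call, and the median was -0.03. With quantile normalization there was again no call, against 0.0237% of all genes.

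The intervals show what size of change the arrays could have missed. A change of 1.5-fold is 0.58 on the log2 scale. The 95% interval lay inside that limit in both directions for 73 of 77 members in soleus and for 74 in gastrocnemius, and inside 2-fold for all 77 in both. The genes whose intervals reached past 1.5-fold were Rpl14, Rpl21, Rpl27a and Rps19 in soleus, and Rpl14, Rpl21 and Rps19 in gastrocnemius. Rpl14, for example, had an interval from -0.78 to 0.17 in soleus. These limits hold for the 75th percentile scale, which sees changes relative to the other transcripts on an array and not a change in the amount of all RNA. In gastrocnemius the intervals hold suspension and scan day together, since both changed together on all arrays but HLS array 1. In soleus they do so in part, since the arrays scanned on day 3 were all HLS arrays.

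**Figure D1:**
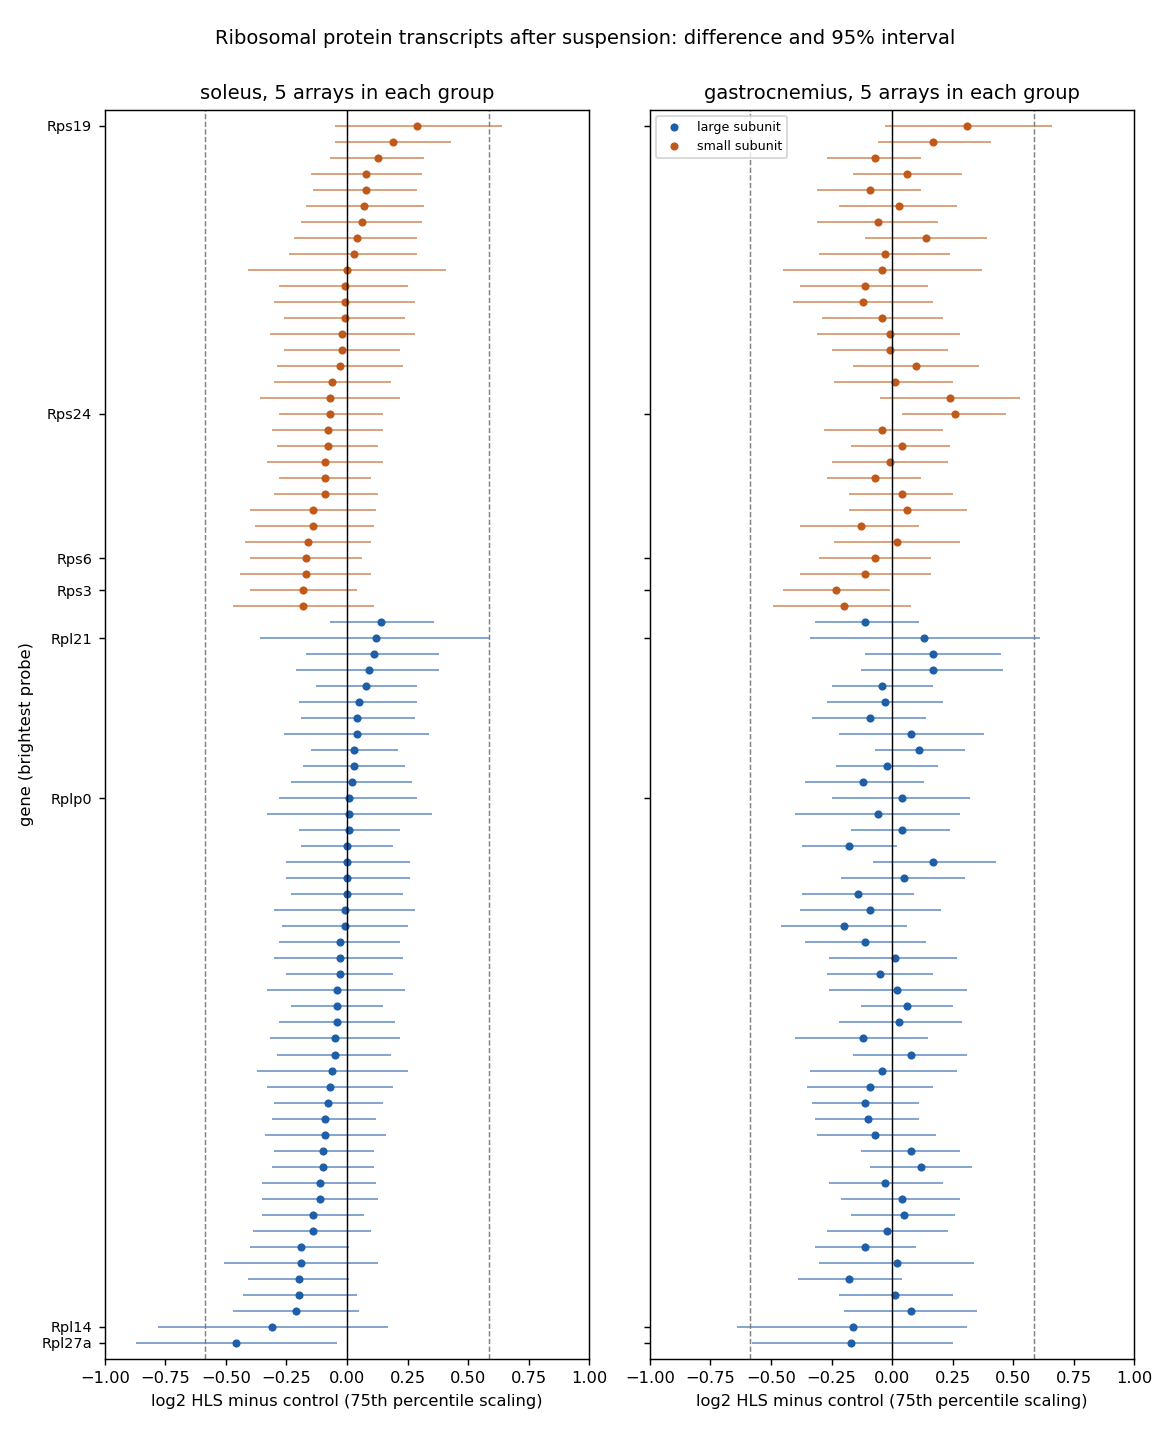
Each of the 77 genes has a row, with the log2 difference HLS minus control on the horizontal axis in soleus and in gastrocnemius (points) and its 95% interval from limma (lines), coloured by subunit and sorted by the soleus value, with names at a few genes the text describes. Points lie between -0.46 and 0.31, and 76 of 77 intervals in soleus and 75 of 77 in gastrocnemius reach 0.

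The genes with special roles differed as little. The stalk proteins Rplp0 (on the probe of that name), Rplp1 and Rplp2, which recruit elongation factors to the large subunit, differed by 0.01, -0.01 and 0.04 in soleus and by 0.04, -0.09 and -0.09 in gastrocnemius. Rps6, the small subunit protein phosphorylated by S6 kinase downstream of mTORC1, differed by -0.17 and -0.07. Rpl5 and Rpl11, which bind the 5S ribosomal RNA and in nucleolar stress hold the p53 ligase Mdm2, differed by 0.04 and -0.03 in soleus and by 0.08 and -0.05 in gastrocnemius. None of these passed the test.

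Rps27a, which is made as a fusion with ubiquitin, differed by 0.08 in soleus and 0.06 in gastrocnemius. Rpsa, the laminin receptor protein of the small subunit, differed by -0.01 and -0.11. Rpl13a, Rpl32, Rps18 and Rpl19, often used as reference genes in quantitative PCR, lay between -0.14 and 0.08 in both muscles. Their standard errors were 0.10 to 0.12, about as large as the differences.

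Other genes of translation and ribosome production were counted list by list, against the 5.95% of all genes called in soleus and 3.17% in gastrocnemius. Among 22 tested genes of TOP messenger RNA control and mTORC1 signalling, 3 rose and 2 fell in soleus, and 4 rose and 1 fell in gastrocnemius (limma, adjusted over all genes). Ddit4, a stress-induced inhibitor of mTORC1, rose by 2.14 in soleus (SE 0.53, adjusted p = 0.017) and by 2.55 in gastrocnemius (SE 0.53, adjusted p = 0.0087). Deptor, an inhibitory subunit of mTORC1, rose by 0.89 in soleus and by 0.75 in gastrocnemius, and Sesn1, a sestrin that restrains mTORC1, by 0.83 and 0.82. Eif4e, the cap-binding translation factor, fell by 0.69 in soleus and by 0.57 in gastrocnemius. Rptor, the subunit that brings substrates to mTORC1, fell by 0.40 in soleus.

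In the lists of ribosome production few genes passed. The list names are headings here and below, and a single gene, such as Noc4l or Nop53, may act at another step. Of 14 genes listed under RNA polymerase I and its factors, none passed in either muscle. The lowest p values were those of Nop53 in soleus (0.39, adjusted p = 0.051) and Polr1a in gastrocnemius (-0.24, adjusted p = 0.20). Of 37 genes of the small subunit processome, 1 rose and 1 fell in each muscle. Emg1, a methyltransferase of the small subunit RNA, fell in both, by 0.36 in soleus and by 0.54 in gastrocnemius. Riok2, a kinase of late small subunit assembly, rose by 0.67 in soleus, and Wdr43 by 0.54 in gastrocnemius. Of 40 genes listed under large subunit assembly, 1 rose and 1 fell in each muscle. These were Noc4l (0.28) and Nip7 (-0.35) in soleus, and Nvl (0.48) and Nop2 (-0.46) in gastrocnemius.

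Of 11 elongation genes, 1 rose in each muscle. In soleus this was Eef2k, the kinase that inhibits elongation factor 2 (0.88, adjusted p = 2.6e-05), and in gastrocnemius Pabpc1, the poly(A)-binding protein (0.49, adjusted p = 0.024). Among 20 genes of ribosome quality control and escort, Ankzf1 rose (0.33) and G3bp1 fell (-0.68) in soleus, and none passed in gastrocnemius, where the lowest p was that of Bccip (-0.26, adjusted p = 0.13). Of 7 ribosomal protein genes whose names fall outside the rule, 1 fell in both muscles. This was Rpl7l1, an assembly factor related to Rpl7, at -0.45 in soleus (adjusted p = 0.018) and -0.44 in gastrocnemius (adjusted p = 0.035). Both suspension comparisons stand on their own arrays, with no array in common, although the muscles come from the same animals. Of the markers of other cell types, the tendon factor Scx fell in both muscles (-0.78 and -0.75). In soleus the smooth muscle gene Tagln (-1.20) and the fibroblast gene Mfap5 (-0.99) also fell and the satellite cell gene Cdh15 rose (0.47), and in gastrocnemius the endothelial receptor Kdr fell (-1.12). Each was the only marker of its list to pass there. The list medians were -0.41 and -0.20 for 5 tendon markers, and in soleus -0.77 for 4 smooth muscle, -0.11 for 7 fibroblast and 0.47 for 3 satellite cell markers. For the 6 endothelial markers in gastrocnemius the median was 0.07, above 0 although Kdr fell. No adipocyte, Schwann or leukocyte marker passed in either muscle. The part of these in the other values was not tested.

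The muscles differed much more than the conditions. In controls, 34 of the 77 transcripts were higher in soleus than in gastrocnemius, against 12.7% of all genes, and 2 were lower, against 20.9% (limma, adjusted p under 0.05, 5 arrays in each group). In either direction it was 36 of 77 members against 33.5% of all genes, and after suspension 30 of 77 against 30.9%. The median difference, soleus minus gastrocnemius, was 0.27 over the members and -0.05 over all genes. Large and small subunit genes were alike in this, with 19 of 46 and 15 of 31 higher and medians of 0.26 and 0.28. The 2 lower genes, Rpl21 and Rpl3l, both belong to the large subunit.

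After suspension, in other animals, 29 members were higher in soleus (13.3% of all genes) and 1 was lower (17.6%), with a median of 0.17 against -0.03 over all genes. Without soleus HLS array 1 these became 27 higher and 3 lower, with a median of 0.21, and the shares of all genes in that fit are not given here. Of the 34 genes higher in controls, 73.5% were higher again after suspension, and of the 29 higher after suspension, 86.2% were so in controls, which is 25 genes. The same overlap over all genes was not counted. The sign was the same in 67 of 77. Across the 77 genes the 2 sets of differences had a Pearson correlation of 0.90, and across all genes 0.83. The points of these correlations share arrays and scaling within each set of animals, and genes are not independent replicates.

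**Figure D2:**
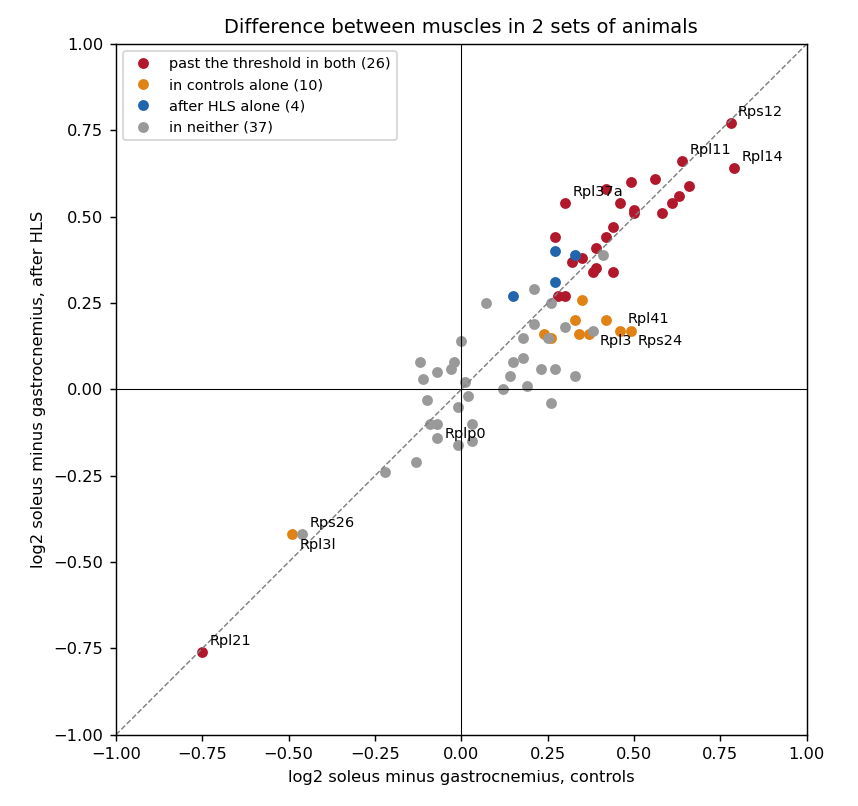
Each point is 1 of the 77 genes, with the log2 difference soleus minus gastrocnemius in control animals on the horizontal axis and in suspended animals on the vertical axis, coloured by where it passed the test. Rps12, Rpl11 and Rpl14 lie at the upper right and Rpl21 at the lower left, with 26 genes past the threshold in both sets and 37 in neither.

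The control muscles were scanned on different days and lay on different slides, so in controls muscle and batch cannot be told apart except through 1 array. All gastrocnemius control arrays were scanned on day 1 and all soleus control arrays on day 2. With scan day as a term, which rests on gastrocnemius HLS array 1, 1 member kept its call, Rps12 (0.89), and the median was 0.36. After suspension, day 2 held 4 gastrocnemius and 3 soleus arrays. Within that day the median difference of the members was 0.25 and 67 of 77 values lay above 0, while the median of all genes was -0.04. A fit with scan day as a term called 18 members after suspension, all of them higher, and the day 2 arrays alone called 15, all higher. The shares of all genes called in these 2 fits are not given here, so the counts are not read as an excess. No slide held both muscles.

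The size of the excess in soleus depended on the scaling. With quantile normalization, 19 members were higher (14.9% of all genes) and 7 lower (16.5%) in controls, with a median of 0.14. After suspension 18 were higher (16.6%) and 8 lower (15.8%), with a median of 0.03. On the 75th percentile scale, the median difference of the other genes was above 0 in every range of level above that percentile. Of the 204 other genes with mean levels of 6 and above, 38.7% were higher in soleus in controls, and their median difference was 0.19. The 28 members in that range had a median of 0.39, and 21 of them were higher. Between 4 and 6 the medians were 0.15 for 635 other genes and 0.23 for 35 members. Of these 35 members 11 were higher and 1 lower, against 32.9% and 10.7% of the other genes. With quantile normalization, the medians at 6 and above were 0.06 for the other genes and 0.28 for the members. Of these 28 members 11 were higher and 0 lower, against 28.4% and 20.6% of the other genes. Between 4 and 6, 6 of the 35 members were then higher and 4 lower, against 20.2% and 22.5% of the other genes. After suspension, on the 75th percentile scale, medians between 4 and 6 were 0.16 for the other genes and 0.09 for the members. Of these 35 members 6 were higher and 0 lower, against 31.7% and 9.92%. At 6 and above the medians were 0.22 and 0.40, and 22 of 28 members were higher, against 38.7%. With quantile normalization the medians after suspension were 0.03 and -0.04 between 4 and 6, and 0.06 and 0.27 at 6 and above.

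**Figure D3:**
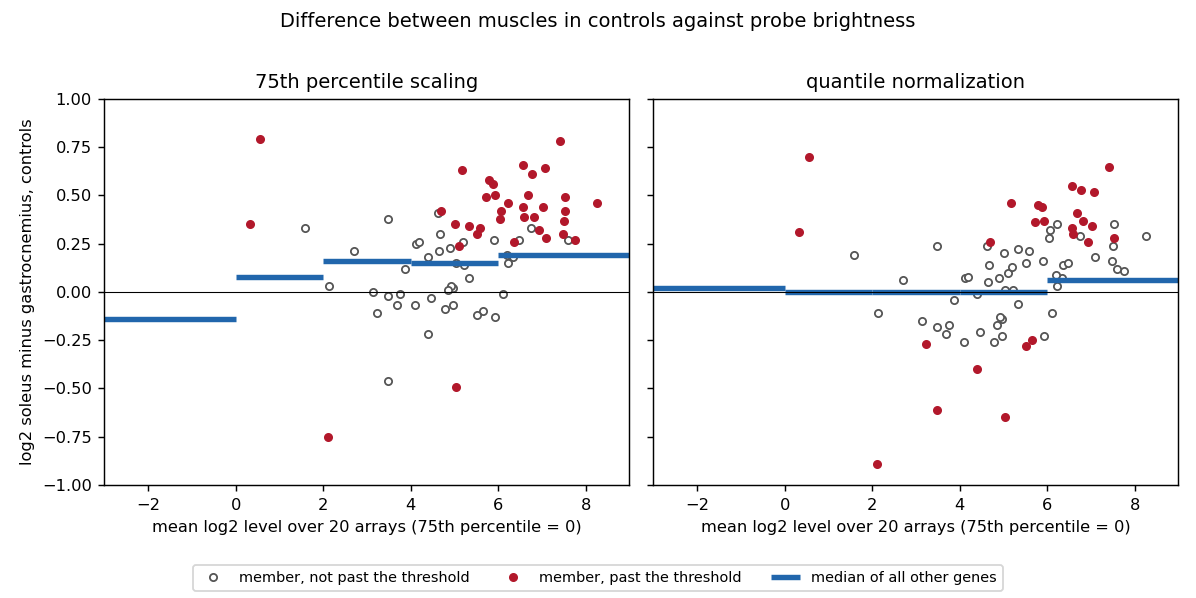
The log2 difference soleus minus gastrocnemius in controls is plotted for each of the 77 genes against the mean level of its probe, after 75th percentile scaling and after quantile normalization, and thick lines give the median of all other genes in bins of level. Most members at 6 and above lie over the line of the other genes in both panels (member medians 0.39 and 0.28), while members between 2 and 4 do not (-0.01 and -0.17).

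The spike-in RNAs, added in equal amounts to each labelling, gave another picture in 1 group. Relative to the 75th percentile they read 2.69 ± 0.09 on the gastrocnemius control arrays (SD, n = 5), against 1.61 ± 0.04 for soleus controls and, after suspension, 1.88 ± 0.21 for soleus and 1.89 ± 0.14 for gastrocnemius. Scaling to them moved the median of all genes to 1.03 for the muscles in controls and to 0.82 for suspension in gastrocnemius, so nearly every gene was called there. The medians of the members on that scale were 1.35 and 0.79. After suspension the same scaling left the median of all genes at -0.01, and 20 members were higher and 1 lower, with a median of 0.18. The share of all genes called there is not given here. How much of the gastrocnemius control value is spike-in and how much is muscle RNA was not tested.

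Markers of other cell types differed between the muscles too. In controls 5 of 6 adipocyte markers were higher in soleus, with a median of 2.46, and their summed level ran from 40.7 to 216 in soleus against 13.5 to 21.4 in gastrocnemius, as multiples of the 75th percentile. Endothelial markers were higher in 4 of 6 (19.8 to 26.5 against 16.3 to 19.1) and tendon markers in 3 of 5 (83.2 to 112 against 69.5 to 77.5). Schwann cell markers were lower in 2 of 6. After suspension 5 of 6 adipocyte markers were again higher (20.4 to 128 against 9.22 to 21.4). All 6 slow-fibre markers were higher in soleus, with a median of 3.18, and of 7 fast-fibre markers 5 were lower and 2 higher (Tnnc2 0.63 and Tnni2 0.35). None of these markers was below background on all arrays, and their part in the difference of ribosomal protein transcripts was not tested.

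In soleus, 14 of the 77 genes were higher than in gastrocnemius in controls and after suspension, under both scalings. The share of all genes that met this joint rule was not counted, so the 14 are a description. Of these, 6 belong to the large subunit, among them Rpl11, Rpl14, Rpl30 and Rpl38, and 8 to the small one, among them Rps3, Rps12, Rps13, Rps18 and Rps21. Rpl21 was lower in all 4 comparisons, on its brightest probe. The values of those with the largest differences follow.

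Rps12, a small subunit protein, read 6.85, 7.14, 7.0, 7.16 and 7.35 in gastrocnemius control and 8.03, 8.08, 7.86, 7.79 and 7.63 in soleus control. After suspension it read 7.06, 6.84, 6.96, 6.97 and 7.01 in gastrocnemius and 7.43, 7.70, 7.92, 7.96 and 7.70 in soleus. Every soleus value lay above every gastrocnemius value, and soleus was higher in 5 of 5 control and 5 of 5 suspended animals. The difference was 0.78 (SE 0.12), or 1.72-fold, in controls (limma adjusted p = 6.6e-05) and 0.77 after suspension (adjusted p = 8.8e-05).

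Rps18, of the head of the small subunit, read 7.20, 7.34, 7.25, 7.40 and 7.41 in gastrocnemius control and 7.96, 7.84, 7.53, 7.65 and 7.70 in soleus control. After suspension it read 7.32, 7.02, 7.25, 7.24 and 7.29 in gastrocnemius and 7.62, 7.74, 8.02, 7.97 and 7.71 in soleus. The muscles did not overlap in either set. The difference was 0.42 (SE 0.10, adjusted p = 0.0043) in controls and 0.58 (SE 0.10, adjusted p = 0.00035) after suspension, 1.33-fold and 1.5-fold.

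Rpl11 read 6.55, 6.89, 6.74, 6.81 and 6.94 in gastrocnemius control and 7.70, 7.52, 7.21, 7.41 and 7.28 in soleus control. After suspension Rpl11 read 6.83, 6.61, 6.73, 6.74 and 6.76 in gastrocnemius and 7.18, 7.37, 7.50, 7.56 and 7.37 in soleus. All soleus values were the higher ones. The difference was 0.64 (SE 0.11, adjusted p = 0.00017) in controls and 0.66 (adjusted p = 0.00014) after suspension. Rpl5, its partner on the 5S ribosomal RNA, showed -0.01 and -0.05, with intervals from -0.31 to 0.29 and from -0.35 to 0.25.

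Rps3 read 5.63, 5.65, 5.57, 5.81 and 5.86 in gastrocnemius control and 6.35, 6.42, 6.03, 6.50 and 6.04 in soleus control. After suspension Rps3 read 5.43, 5.37, 5.58, 5.55 and 5.44 in gastrocnemius and 5.99, 6.07, 6.24, 6.18 and 5.96 in soleus, again with no overlap. The difference was 0.56 (adjusted p = 0.00047) in controls and 0.61 (adjusted p = 0.00026) after suspension. Rps13 (0.66 and 0.59), Rpl30 (0.63 and 0.56) and Rps27a (0.50 and 0.51) likewise had no overlap between the muscles in either set, and all were called in both.

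Rpl38, a large subunit protein whose loss in mice disturbs the patterning of the axial skeleton, differed by 0.61 (adjusted p = 0.0021) and 0.54 (adjusted p = 0.0053). Rps21 differed by 0.58 and 0.51, and Rps29 by 0.50 and 0.52, all 4 called. Rps20 differed by 0.49 and 0.60, and Rpl37a by 0.30 and 0.54, and these also passed in both sets. Rpl14 had the largest control difference, 0.79 (SE 0.23, adjusted p = 0.013), on a dim probe with a mean level of 0.56. It read 0.84, 0.18, 0.15, 0.19 and 0.05 in gastrocnemius control and 1.16, 1.19, 0.72, 1.15 and 1.13 in soleus control, so gastrocnemius control 1 lay above soleus control 3.

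Of the stalk proteins, Rplp1 read 7.90, 8.12, 7.96, 8.11 and 8.18 in gastrocnemius control and 8.68, 8.64, 8.38, 8.42 and 8.42 in soleus control. Its difference was 0.46 (SE 0.14, adjusted p = 0.018) in controls and 0.54 (adjusted p = 0.0073) after suspension, with no overlap between the muscles in either set. Rplp2 showed 0.27 in controls (adjusted p = 0.071) and 0.40 after suspension (adjusted p = 0.011).

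Rplp0, the protein that anchors both to the ribosome, showed -0.07 (adjusted p = 0.70) and -0.10 (adjusted p = 0.59) on the probe that carries that name, with levels from 3.07 to 3.93 over the 20 arrays. A second probe carried its older symbol Arbp and so fell outside the rule. That Arbp probe had a mean level of 8.09, and it was higher in soleus by 0.64 in controls (SE 0.10, adjusted p = 8.6e-05) and by 0.69 after suspension (adjusted p = 5.4e-05). The 2 probes thus differ between the muscles, and which of them reads the gene could not be settled from the files, so the Rplp0 values hold for the probe of that name only. Under suspension the Arbp probe differed by -0.02 in soleus and -0.06 in gastrocnemius.

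**Figure D4:**
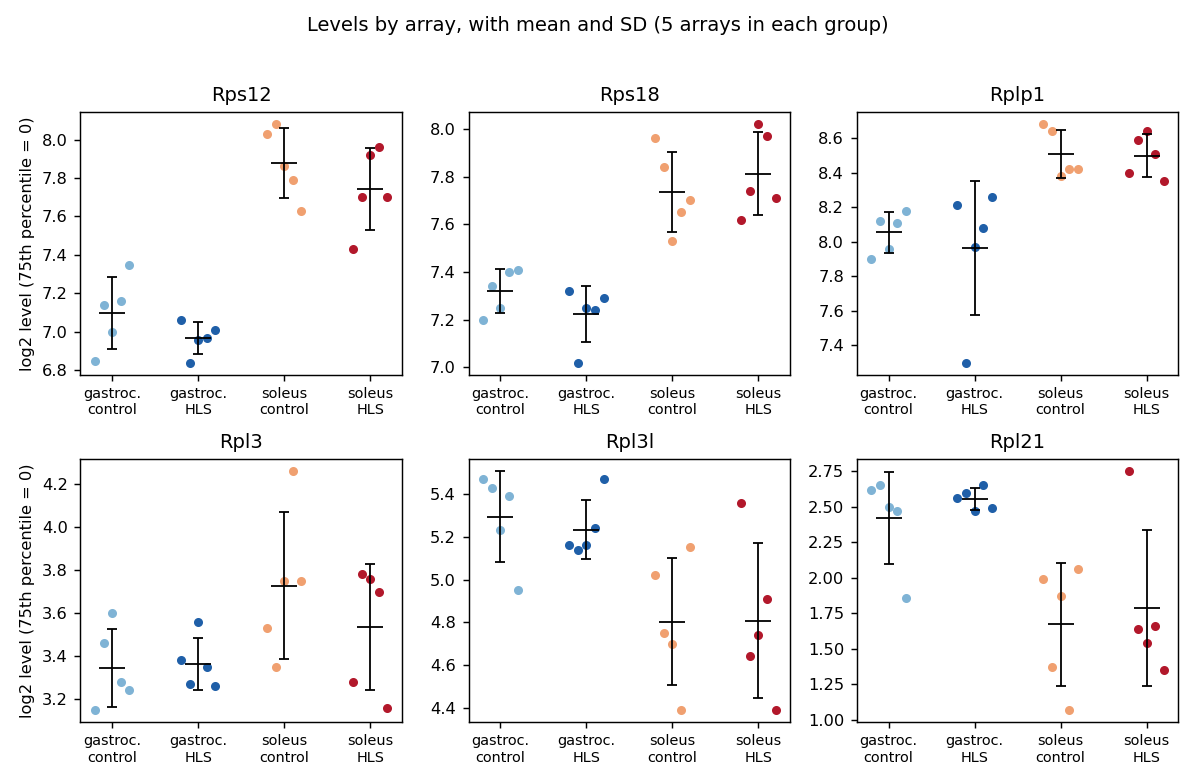
Log2 levels relative to the 75th percentile are shown on each of the 5 arrays of the 4 groups for Rps12, Rps18, Rplp1, Rpl3, Rpl3l and Rpl21, with group means and SD; each panel has an axis of its own that does not start at 0. The muscles separate in Rps12, Rps18 and Rplp1, and in Rpl3l and Rpl21 soleus HLS array 1 (5.36 and 2.75) lies with gastrocnemius.

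Rpl21, a large subunit protein, had the lowest value of soleus relative to gastrocnemius among the members. It read 2.62, 2.65, 2.5, 2.47 and 1.86 in gastrocnemius control and 1.99, 1.37, 1.87, 1.07 and 2.06 in soleus control. After suspension it read 2.56, 2.60, 2.47, 2.65 and 2.49 in gastrocnemius and 2.75, 1.64, 1.54, 1.66 and 1.35 in soleus. The groups overlapped through 1 array in each set, gastrocnemius control 5 and soleus HLS 1. The difference was -0.75 (SE 0.23, adjusted p = 0.016) in controls and -0.76 (SE 0.23, adjusted p = 0.016) after suspension. Without soleus HLS array 1, which had low Tnni1 and high Myh4 and Pvalb, the latter was -1.0 (adjusted p = 0.00049). Without soleus control 4 the former was -0.60 (adjusted p = 0.054). These values come from the brightest probe of Rpl21, with a mean level of 2.11. A dimmer probe of the gene, with a mean level of -1.49, showed -0.41 in controls and -0.13 after suspension.

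Rpl3l, the muscle form of Rpl3, read 5.47, 5.43, 5.23, 5.39 and 4.95 in gastrocnemius control and 5.02, 4.75, 4.70, 4.39 and 5.15 in soleus control. After suspension Rpl3l read 5.16, 5.14, 5.16, 5.24 and 5.47 in gastrocnemius and 5.36, 4.64, 4.74, 4.91 and 4.39 in soleus. Most soleus values lay below the gastrocnemius ones, with overlap in both sets. The difference was -0.49 (SE 0.16, adjusted p = 0.025) in controls and -0.42 (adjusted p = 0.054) after suspension. With animal as a block the control value missed the threshold (adjusted p = 0.058), and leaving out single arrays ended the call in 5 of 10 cases. Without soleus HLS array 1 the suspended value was -0.56 (adjusted p = 0.0079).

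Rpl3 itself read 3.15, 3.46, 3.60, 3.28 and 3.24 in gastrocnemius control and 3.53, 3.35, 3.75, 4.26 and 3.75 in soleus control. Its difference was 0.38 (adjusted p = 0.062) in controls and 0.17 (adjusted p = 0.42) after suspension. The log2 ratio of the Rpl3l probe to the Rpl3 probe on the same array is not changed by a factor applied to the whole array, although quantile normalization can change it. This ratio was 2.33, 1.97, 1.63, 2.11 and 1.72 in gastrocnemius control and 1.49, 1.40, 0.95, 0.13 and 1.40 in soleus control, with no overlap. The means were 1.95 ± 0.28 and 1.07 ± 0.57 (SD, n = 5), a 1.83-fold difference with p = 0.00794 in an exact two-sided permutation test. That is the smallest p that free regrouping of these arrays allows, and it was 0.0635 after Benjamini-Hochberg adjustment over 8 tests of paralog ratios. Both muscles come from the same animals, and all ratio tests between the muscles ignored this pairing.

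After suspension the ratio was 1.78, 1.86, 1.59, 1.89 and 2.21 in gastrocnemius and 2.08, 0.86, 0.98, 1.21 and 1.23 in soleus. All soleus values but that of array 1 were below every gastrocnemius value, and the difference was 1.51-fold (exact permutation p = 0.0397, adjusted 0.106). Over all animals the ratio was lower in soleus in 9 of 10. Between conditions the ratio differed by 0.20 in soleus (exact permutation p = 0.571) and by -0.08 in gastrocnemius (exact permutation p = 0.619). The absolute value of such a ratio has no meaning, since the probes may bind with different strength.

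Rps27 and its p53-induced relative Rps27l made a second pair. Rps27 was higher in soleus by 0.39 in controls (adjusted p = 0.016) and by 0.35 after suspension (adjusted p = 0.024), while Rps27l showed -0.07 and 0.05. The log2 ratio of Rps27l to Rps27 was -2.11 ± 0.33 in soleus control (n = 5) and -1.60 ± 0.22 in gastrocnemius control (n = 4, 1 spot left out), with an exact permutation p of 0.0238, 0.0952 after adjustment.

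Among the other genes with special roles, Rpl22 was higher in soleus in controls (0.42, adjusted p = 0.0034) and showed 0.20 after suspension (adjusted p = 0.14). Rpl39, at the exit tunnel of the large subunit, was higher in both sets (0.35 and 0.38), and so was Rpl32 (0.38 and 0.34). Rpl10, a late-joining large subunit protein, showed -0.22 and -0.24, Rps6 0.25 and 0.15, and Rpsa -0.02 and 0.08, none of them called. Rpl13a showed 0.30 and 0.18 and was not called, and Rpl19 was called in controls alone (0.33 and 0.20). The difference between the 2 sets of animals was the interaction tested above, in which no member passed.

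Rps24 and Rpl41 were higher in soleus in controls, by 0.49 (limma adjusted p = 0.0014) and 0.46 (limma adjusted p = 0.012). Both showed 0.17 after suspension, with no call. Dimmer probes of Rps24, with mean levels of -1.38 and -2.53, showed 0.09 and -0.76 in controls. Rps26, at the messenger RNA exit of the small subunit, showed -0.46 (adjusted p = 0.079) and -0.42 (adjusted p = 0.11). Rps26 was lower in soleus in 4 of 5 animals of each set. Without soleus HLS array 1 it was called after suspension, at -0.55 (adjusted p = 0.04).

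Ribosomal protein genes have many processed pseudogenes of nearly the same sequence, and a probe may bind transcripts of these too. The 77 genes were read by 128 probes, of which 127 passed the background filter, and 37 genes had more than 1. In 13 of those 37 genes the probes differed in sign between the muscles in controls, in some with a dim probe beside a bright one and in others among bright probes. Rpl7a gave 0.27, 0.86 and -0.28 on probes with mean levels of 7.75, 5.35 and 4.74. Rps18 gave 0.42 and 0.36 on probes with mean levels of 7.52 and 5.90, and -0.33 on one at -2.74. Rps21 gave 0.58, 0.93 and 1.01 on its 3 probes. Dimmer probes of Rps12, Rps13 and Rps3, with mean levels of -1.83, -0.64 and 2.03, gave 0.20, 0.21 and 0.15 in controls. After suspension these dimmer probes gave 0.03, -0.03 and 0.15, so the large differences of these genes hold for the brightest probe. With the mean of all kept probes in place of the brightest, 30 members were higher and 6 lower in soleus in controls, with no share of all genes given here. Rps13 and Rps18 then missed the threshold after suspension (0.28 and 0.26, adjusted p = 0.085 and 0.34).

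Other genes of translation differed between the muscles in both directions, in lists whose counts stand against 12.7% of all genes higher and 20.9% lower in soleus in controls, and 13.3% and 17.6% after suspension. Outside the name rule, 4 of 7 ribosomal protein genes were higher in soleus in controls, among them Fau (0.53) and Rps4x (0.37), and none was lower. After suspension Rack1 (0.31) and Rps4x (0.25) were higher. Rpl34, which the files list under another name and an accession pairs with its symbol, was not a member, and it showed 0.21 (adjusted p = 0.092) in controls and 0.32 (adjusted p = 0.014) after suspension. Rpl39l, the germ-cell relative of Rpl39, was near the lower end of the signals at -2.83 and was not called.

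Of 11 elongation genes, 3 were higher and 3 lower in soleus controls. Pabpc1 was higher by 0.96 and the elongation factor Eef1a1 by 0.71, whereas its muscle and nerve form Eef1a2 was lower (-1.19) and so was Eif5a (-0.49). After suspension 3 were higher, led by Tpt1 and Pabpc1 (0.51 each), and none was lower.

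Of the 37 small subunit processome genes, 5 were higher and 3 lower in soleus in controls, and 8 and 3 after suspension. Nop56, a core protein of the RNA-guided methylation particle, was higher by 0.78 and 0.76, and Utp15 was lower (-0.47 and -0.79). In controls the methyltransferase Fbl of the same particle was higher by 0.53. For 40 large subunit assembly genes the counts were 5 higher and 6 lower in controls, and 4 and 4 after suspension. Nsa2 was higher (0.57 and 0.53), and Rrp1b (-0.76 and -0.66) and Noc3l (-0.60 and -0.69) were lower.

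For the 14 genes of RNA polymerase I the counts were 4 higher and 2 lower, then 3 and 1, with Polr1a, the largest subunit, higher by 0.35 in both sets. The 22 genes of TOP control and mTORC1 gave 7 higher and 4 lower, then 8 and 3, and the 20 genes of quality control and escort 4 and 3, then 6 and 1. Rptor was higher in soleus in controls (0.47), Eif4ebp2 was lower (-0.92), and Kpnb1, an importin that carries ribosomal proteins into the nucleus, was higher (0.69 and 0.56). The medians of these 6 lists of assembly, elongation and control lay between -0.16 and 0.12 in controls, against 0.27 for the ribosomal proteins. These are not compared at like level. Most genes of the assembly and control lists were dimmer than the median member, at 5.33. On this scale the median of genes outside the group ran from -0.14 at levels below 0 to 0.19 at 6 and above.

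The members varied together between arrays of a group. The median SD between replicates was 0.17 for 73 members with a value on every array and 0.24 over all genes. The mean correlation of the residuals between pairs of members was 0.34, against 0.02 for pairs of all genes. For pairs of 290 other genes at or above the median level of the members it was 0.26. That set was not matched to the dimmer members. These are descriptions, since the genes share arrays and scaling. Taking on each array the median deviation of the 77 genes from their own means gave 0.12 ± 0.07 in soleus control, 0.08 ± 0.14 in soleus HLS, -0.11 ± 0.12 in gastrocnemius control and -0.11 ± 0.08 in gastrocnemius HLS (SD, n = 5). With quantile normalization these means were 0.05, 0.02, -0.05 and -0.02.

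**Figure D5:**
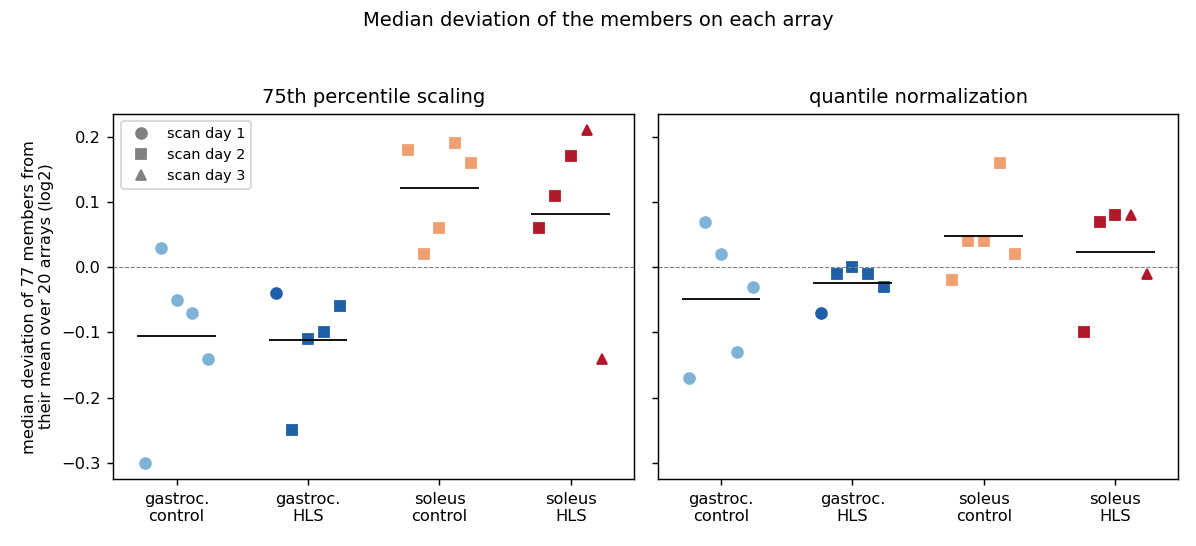
Each point is 1 array, and the vertical axis is the median deviation, in log2 units, of the 77 genes from their means over the 20 arrays, after 75th percentile scaling and after quantile normalization, with symbols for the scan day. On the left the soleus groups average 0.12 and 0.08 and both gastrocnemius groups -0.11, and the conditions of a muscle overlap.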

How the data were processed

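The files are the authors' Agilent Feature Extraction outputs (version 9.1.3.1, per the file headers), 1 single-colour array per muscle, with Cy3-labelled RNA and intensity values that the scanner software had background-subtracted before they were deposited (gProcessedSignal). From these, log2 of the intensity minus the log2 75th percentile of the array over noncontrol spots was computed. Unevenly printed or scanned spots were dropped, so a few genes lack a value on an array, and spots of a probe were averaged. A gene was kept if its probe was well above background on at least 4 of 5 arrays of 1 group. Probes were named by the files' gene name, for other genes through accessions and RefSeq.

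With limma 3.58.1 in R 4.3.3, 1 linear model took all 20 arrays and gave each of the 4 groups a mean. All tests were two-sided, with Benjamini-Hochberg adjustment over 25293 genes and a threshold of 0.05. The calculation was tested on simulated data. The named genes are up to 10 called members with the largest differences at each end of a comparison and a fixed set of special roles, and up to 2 at each end of other lists. Rps24, Rpl41, Rps26, Rpl27a, Rps19 and the Arbp and Rpl34 probes were named after their values were seen. Members, lists and tests were chosen with earlier results of these data known. Ratios of paralog probes were compared by exact permutation, with arrays regrouped freely and without the pairing of muscles by animal. The arrays of a muscle pair come from 1 animal, per the labels. Deviations of the 2 muscles of an animal from their group means correlated between -0.34 and 0.17 over all genes. The p-values measure the spread between animals of this experiment.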

Additional observations from a re-analysis of the deposited data

Results flagged for a closer look

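For each named member and group, the array farthest from the others was compared with the range of its group (Dixon's ratio, 5 arrays, critical value 0.71). Of 124 such groups 10 stood out, and chance alone gives about 5%.

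On soleus HLS array 1, Rpl21 was high at 2.75 (the others 1.35 to 1.66) and Rps20 low at 7.39 (the others 7.83 to 7.96). This is the array with a low Tnni1 and a high Myh4 (4.15 and 9.47), and their part in these values was not tested. On gastrocnemius HLS array 2, a group of small and large subunit transcripts was low together. Rps13 read 5.93 (the others 6.23 to 6.33), Rps20 read 6.93 (7.22 to 7.29), Rps18 read 7.02 (7.24 to 7.32) and Rpl37a read 6.99 (7.23 to 7.32).

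The dim probe of Rpl14 gave 3 cases. It was low on soleus control 3 at 0.72 (the others 1.13 to 1.19), high on gastrocnemius HLS 3 at 0.87 (-0.17 to 0.01) and high on gastrocnemius control 1 at 0.84 (0.05 to 0.19). Rpl21 was low on gastrocnemius control 5 at 1.86 (2.47 to 2.65).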

How the results depend on the processing

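No member was called for suspension in either muscle, or for the difference of the responses, under any alternative but these. Quantile normalization called 1 in gastrocnemius. Spike-in scaling called 8 in soleus, all lower (median -0.30), 77 in gastrocnemius, all higher (median 0.79), and 77 in the difference, all lower (median -1.09), where the medians of all genes were -0.21, 0.82 and -1.04. With slide as a block the median of the difference was -0.14. Leaving out single arrays gave 0 calls throughout, with medians from -0.06 to 0.02 in soleus, -0.05 to 0.03 in gastrocnemius and -0.08 to 0.02 for the difference.

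Between the muscles in controls, the median was 0.14 with quantile normalization, 0.38 with scaling to the median of probes detected on all arrays, and 1.35 with spike-in scaling, which called 76, all higher, and turned Rpl21 to 0.33 (limma adjusted p = 0.2) and Rpl3l to 0.59 (limma adjusted p = 0.0051). Scan day as a block left 1 call. Single arrays left out gave 22 to 38 calls, with 22 without gastrocnemius control 1, and medians from 0.23 to 0.29. After suspension the median was 0.03 with quantile normalization, scan day as a block gave 18 calls and the day 2 arrays alone, a choice made after seeing the data, 15. Single arrays left out gave 21 to 31 calls and medians from 0.13 to 0.24. Rpl14 lost its call there in 7 of 10 cases. The counts of calls in this section stand without the shares of all genes under the same alternatives.

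Both muscles of an animal share its number. With this replicate block 29 members were called in controls and 24 after suspension, against 36 and 30, and 0 in the suspension comparisons, where the number pairs nothing in the labels. Own-number arrays correlated best in 1 of 5 soleus and 2 of 5 gastrocnemius cases. Over all alternatives, 115 of 124 counts and 120 of 128 medians stayed within 1.5-fold or within 1 SD of the main value, and of 506 values of named members 32 lost their call and 2 reversed. The ratio test of paralogs and the bins by signal were added after seeing the data. The number of arrays limits what could be seen: under suspension the intervals of Rpl14, Rpl21 and Rps19 reach past 1.5-fold in both muscles.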
